A study of Mus musculus with 10 samples.

Results

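RNA-seq of leukemia stem cells was used to describe 49 genes of DNA replication and the G1/S transition, taken by symbol from the 52171 genes of the deposited table. They were divided by role into origin licensing (12 genes), helicase activation (6), polymerases and primase (8), the sliding clamp, its loader, RPA and lagging-strand enzymes (11), nucleotide supply (4), G1/S control (6) and replication-coupled chromatin assembly (2). The cells were taken from the bone marrow of mice whose acute myeloid leukemia was caused by the MLL-AF9 fusion, and were sorted for c-Kit, CD34 and CD16/32 and against Sca-1 and lineage markers. The 5 floxed control libraries were from Nup214fl/+ mice, and the 5 heterozygous libraries from Nup214fl/+,Tie2-Cre mice, in which the Tie2 promoter drives Cre in blood and endothelial cells. MLL-AF9 and 1 floxed copy of Nup214, a nuclear pore gene, were common to both groups. Cre was present in the heterozygous group alone, so its own effect and the loss of a Nup214 copy cannot be told apart.

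Before S phase, the origin recognition complex, Cdc6 and Cdt1 load the MCM2-7 helicase onto DNA, and geminin blocks loading once S phase has begun. Cyclin E with Cdk2 and the E2F transcription factors commit the cell to S phase, after which Cdc45 and GINS activate the helicase and the polymerases, clamp and clamp loader copy the strands from a pool of deoxynucleotides. Most of these genes are E2F targets that are transcribed around the G1/S boundary, and their transcripts are widely read as a sign of cycling cells.

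Values are normalized reads, read counts divided by 1 factor per library, and are not scaled by gene length unless stated. Recovered depth was 20.8 to 30.1 M reads in the controls and 24.6 to 39.1 M in the heterozygous libraries. Genes with a value above 0 numbered 26913 to 30277 in controls and 19541 to 25684 in the heterozygous libraries, without overlap. Nup214 read 811 to 984 in controls and 376 to 602 in heterozygous libraries, 53.4% of the control mean, with a two-sided exact permutation p of 0.00794 over 252 assignments, the smallest it can give. Of the positive sort markers, Kit fell from 2113 ± 427 to 1174 ± 360 (SD, n = 5 each, limma adjusted p = 0.0184), and all 4 were detected in all libraries. Heterozygous libraries 3, 4 and 5 stood apart from libraries 1 and 2. A list of 15 erythroid markers summed to 2513, 2852 and 2362 in these 3, against 43.9 and 161 in the first pair and 60.1 to 136 across the controls. The 4 globin genes made up most of that sum, at 2323, 2708 and 2199, and the other 11 markers summed to 190, 144 and 163 in the same 3 libraries, 42.0 and 52.3 in the first pair and 52.7 to 79.4 in controls. Klf1, an erythroid transcription factor, averaged 7.78 ± 2.06 in controls and 3.61 ± 1.33 in heterozygous libraries and was not called. A list of 16 mature neutrophil markers summed to 2.36, 1.87 and 4.29 M in the same 3, against 0.0746 and 0.121 M in the first pair and 1.15 to 1.69 M across the controls. S100a8 was the most abundant of the 16, of which 11 had estimates above 0 and 5 below. Csf3r was called higher, and Stfa2l1 lower (104 ± 83.2 to 11.6 ± 18.7, limma adjusted p = 0.0138). Camp read 114066, 69229 and 205850 in libraries 3, 4 and 5 and 172477 to 344937 in controls. Some other markers, though not whole lists, shifted in all 5 heterozygous libraries. The sum of 10 B cell markers was 9117 to 29799 against 4418 to 6635. Ighm made up most of it, at 8299 to 29127 against 3351 to 5429. Of the 10, 5 had estimates above 0 and 5 below. Cd79b was called lower (1125 ± 125 to 645 ± 187, limma adjusted p = 0.0105). Of 15 monocyte and macrophage markers, 6 were called higher and 1 lower. Cd68 rose from 661 ± 127 to 2513 ± 236 (limma adjusted p = 7.56e-06). Ly6c2 fell from 89564 ± 14630 to 45650 ± 27981, though heterozygous library 2, at 88057, lay within the control range of 74869 to 111112. The 15 summed to 50511 to 98114 in heterozygous libraries and 80418 to 116076 in controls. Itgam, a lineage marker of the sort, read 1441 and 2362 in the first pair, 16832, 10338 and 16129 in the other 3, and 5340 to 7792 in controls. Of 7 tested plasmacytoid dendritic markers, 1 was called higher and 2 lower. Among them Tcf4 fell from 628 ± 212 to 58.2 ± 27.8 (limma adjusted p = 4.45e-05). The sum of 10 T and NK cell markers, mostly Nkg7, was 5764, 9626 and 13564 in libraries 3, 4 and 5. It was 26478 and 40826 in the first pair and 26393 to 32496 in controls. The sum of 6 endothelial markers was 563 to 1311 against 406 to 681 in controls. No gene of the erythroid, neutrophil and B cell lists was at 0 in all libraries. The part of these cells and of the number of genes detected in the results below was not tested, and in sorted bulk RNA fewer cells of a type and less RNA per cell cannot be told apart.

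In heterozygous cells, 9 of the 49 replication and G1/S genes were higher and 1 was lower. Those that rose were the helicase subunit gene Mcm3, the primase subunit gene Prim2, the clamp gene Pcna, the clamp loader gene Rfc3, the nucleotide enzymes Rrm2 and Tyms, and the G1/S regulators Ccne2, E2f1 and Cdk2. Cdc25a, which encodes a phosphatase that activates Cdk2, fell. The rises were small, between 0.35 and 0.73 on the log2(value + 1) scale, and the other 39 genes were not called. A call is a limma adjusted p under 0.05, with Benjamini-Hochberg adjustment over all 22458 genes tested, and all 49 members passed the filter on low values.

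The members' share called higher, 18.4%, stands beside 5% of all tested genes, and 8.01% of all tested genes were called lower. That background depends on level. All 49 members averaged at least 100 normalized reads, and 32 averaged at least 1000. Of these 32, 7 were called higher (21.9%) and none lower, beside 15.5% and 2.19% of the 3098 tested genes at that level. Of the 17 members between 100 and 1000, 2 were called higher (11.8%) and 1 lower, beside 7.52% and 4.25% of 5958 genes. On the log2 scale the members had a median fold change of 0.19, beside -0.19 for all genes tested, 0.17 for genes averaging at least 1000 normalized reads and 0.04 for genes between 100 and 1000. The point estimate was above 0 for 43 of the 49. The 13402 tested genes averaging under 100 normalized reads, where no member lies, had a median of -0.63.

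With TMM or upper quartile scaling the same 9 genes were called higher and Cdc25a lower, and the members' median was 0.24 and 0.26. After quantile normalization none was called higher and 1 was called lower, with 6 members at an unadjusted p under 0.05 on the higher side. In that fit 3.47% of all genes were called higher and 2.3% lower, and the members' median was 0.03 against -0.02 for all genes. The edgeR quasi-likelihood test on recovered reads called 5 members higher and 1 lower, beside 7.63% and 6.1% of the genes it tested. DESeq2 called 10 higher and 1 lower, beside 7.46% and 8.68%. In 7 members (14.3%) all heterozygous libraries lay above all controls, beside 4.64% of all genes tested, and in 1 member, Cdc25a, they all lay below, beside 6.67%. The shares of all genes in this paragraph were not matched for level, on which the background depends, and none was computed for TMM or upper quartile scaling.

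**Figure D1:**
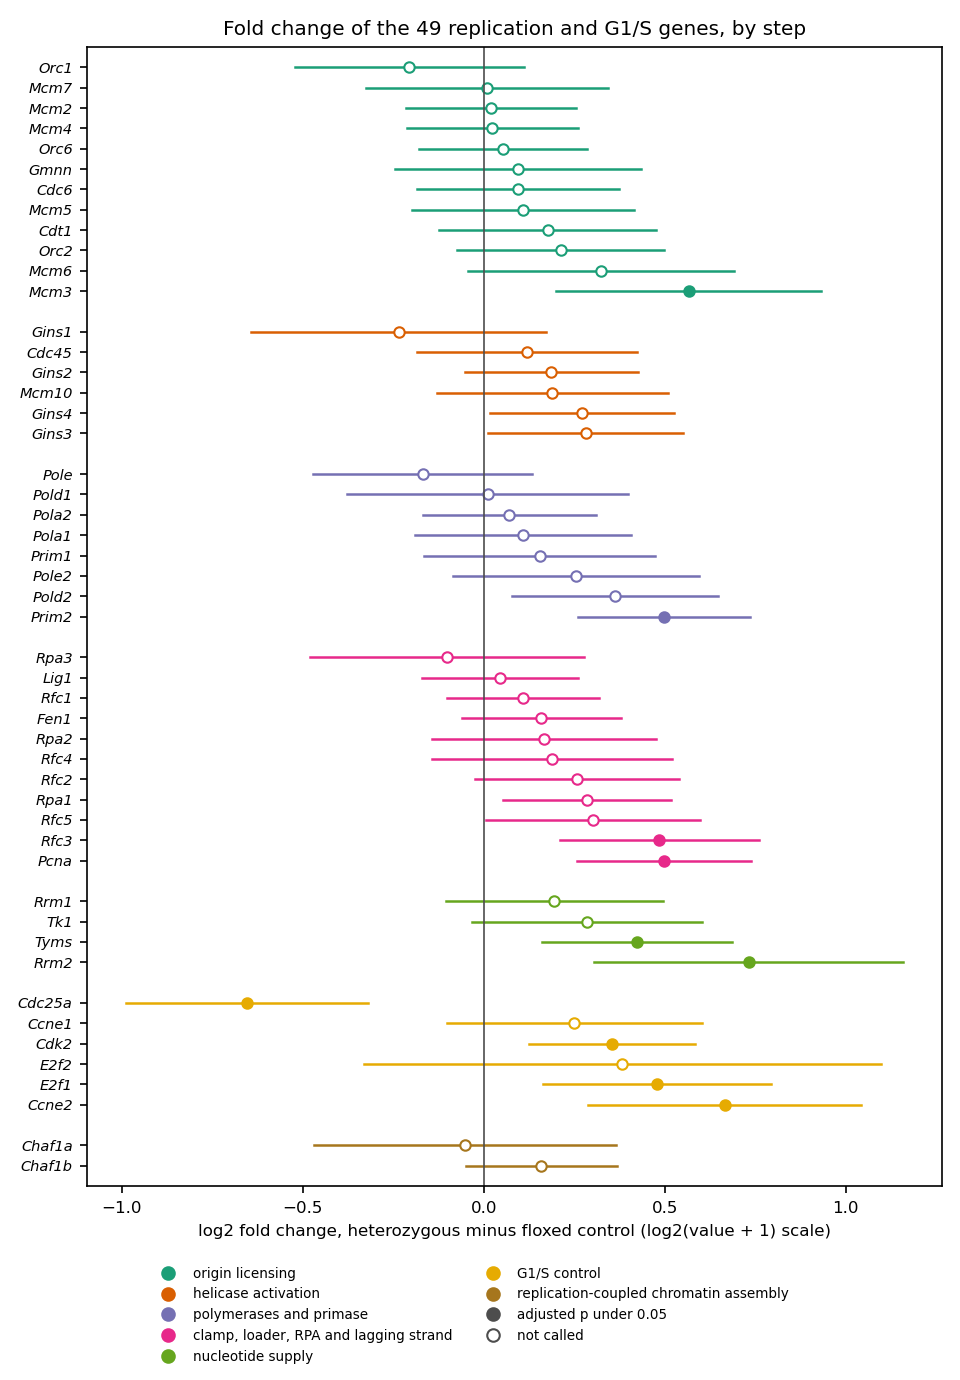
Log2 fold change of each of the 49 genes, heterozygous minus floxed control, on the log2(value + 1) scale, grouped and coloured by step, with points for the limma estimate and bars for its 95% interval. Filled points are the 10 genes with an adjusted p under 0.05; most open points lie to the right of 0, and Cdc25a is the only filled point to the left.

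Of the 12 licensing genes, 1 was called, Mcm3, which encodes a subunit of the MCM2-7 ring. Mcm3 (ENSMUSG00000041859.10, mm10 chromosome 1 from 20802968 to 20820312, minus strand) read 6797, 6435, 5650, 7972 and 6154 in control libraries 1 to 5, and 12194, 12716, 6948, 8036 and 9949 in heterozygous libraries 1 to 5. Libraries 1 and 2 were the highest of all 10, and library 3 lay within the control range. The log2 fold change was 0.57 (SE 0.170, limma adjusted p = 0.0448). The call was lost without heterozygous libraries 1 and 2 together (adjusted p = 0.12), and without any of control libraries 1, 2, 3 and 5 or heterozygous libraries 1, 2 and 5 (adjusted p of 0.0715 to 0.0969). It was also lost with edgeR (0.0514), no filter (0.0574), a pseudocount of 0.1 (0.0571), quality weights (0.0540) and quantile normalization (0.292), and in 14 of the 22 alternatives in all.

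Per kb and in all, Mcm6 had the most reads of the licensing genes. It encodes another subunit of the ring, and read 18144, 17666, 15741, 20344 and 18205 in controls and 29200, 26311, 14840, 21579 and 23297 in heterozygous libraries. Heterozygous library 3 was the lowest of all 10, and the other 4 exceeded every control. Mcm6 was not called (log2 fold change 0.32, SE 0.171, adjusted p = 0.207), and it was called without heterozygous library 3 (adjusted p = 0.0364). Estimates for Mcm2, Mcm4, Mcm5 and Mcm7 were 0.02, 0.02, 0.11 and 0.01, with 95% intervals that together spanned -0.32 to 0.41. Mcm7 shares exon sequence with the opposite-strand genes Ap4m1 and Cops6, and strand was not described for these libraries, so such reads cannot be told apart.

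Because the 6 MCM proteins assemble in equal numbers, their transcripts were also compared within each library, a comparison chosen after their values were seen. Per kb of merged exon, Mcm3 made up 13.2, 13.5, 12.7, 14.1 and 13.1% of the summed MCM2-7 reads in controls and 18.1, 18.8, 16.5, 15.4 and 16.9% in heterozygous libraries. All 5 heterozygous libraries lay above all 5 controls for Mcm3, and for each of the other 5 subunits the groups overlapped. Mcm7 averaged 21.3% ± 1.36 in controls and 18.6% ± 0.871 in heterozygous libraries, and Mcm4, the smallest share, 7.97% ± 0.487 and 7.07% ± 0.875 (SD, n = 5 each). A share of a sum falls when another rises, so the 6 shares are not independent. The ratio of Mcm3 to Mcm5 reads was 0.525 to 0.581 in controls and 0.686 to 0.873 in heterozygous libraries, also without overlap.

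**Figure D2:**
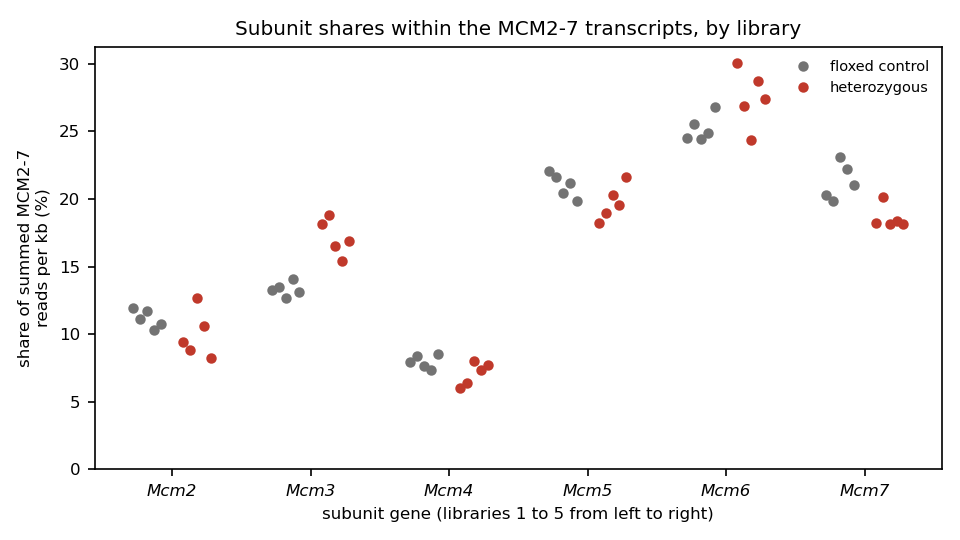
Share of each subunit gene in the summed MCM2-7 reads per kb of exon (percent, vertical axis), with a point per library, grey for floxed control and red for heterozygous. The red Mcm3 points lie between 15.4 and 18.8%, above the grey range of 12.7 to 14.1%, while both colours overlap for the other subunits.

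None of the 6 genes that load the helicase or control its loading was called by limma, edgeR or DESeq2, or reached an unadjusted limma p under 0.05. Orc1, the largest subunit of the origin recognition complex, averaged 118 ± 11.6 and 102 ± 8.37 normalized reads, Orc2 491 ± 76.6 and 567 ± 65.7, and Orc6 786 ± 53.8 and 818 ± 83.4 (SD, n = 5 each, controls first). Cdc6, which helps load the helicase, averaged 1032 ± 79.4 and 1114 ± 198, and Cdt1, its partner, 1042 ± 190 and 1169 ± 146. Gmnn, which encodes geminin, the inhibitor of Cdt1, averaged 1387 ± 206 and 1496 ± 318. Their estimates ran from -0.21 for Orc1 to 0.21 for Orc2, and the 95% intervals were widest for Gmnn, from -0.25 to 0.43.

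Promoters were searched for the E2F core motif in 4 spellings, TTTCCCGC, TTTGGCGC, TTTCGCGC and TTTGCCGC, on both strands, in the RefSeq windows of 250 bases before to 50 after each start (GRCm38.p6). Of the 49 members 40 had a window, and 16 of these (40.0%) held a match, beside 2.61% of the 27025 genes in that table. Ccne2, Gins1, Gins2, Gins4, Gmnn, Mcm4, Pole, Prim2 and Rfc2 had no entry. Among members with a window, 4 of the 8 called genes and 12 of the 32 others held a match, so matches were found on both sides of the call. The sequences are shown for the called and leading members that held a match, 5′ to 3′ on the gene's strand, with matches in capitals. For Mcm6 the 160 bases before the start (chr1:128359706-128359865, minus strand) held 3 matches, of which 2 overlap, and for Mcm3 the 2 matches lay at bases 20 to 27 and 39 to 46 after the start (chr1:20820265-20820294, minus strand).

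Mcm6: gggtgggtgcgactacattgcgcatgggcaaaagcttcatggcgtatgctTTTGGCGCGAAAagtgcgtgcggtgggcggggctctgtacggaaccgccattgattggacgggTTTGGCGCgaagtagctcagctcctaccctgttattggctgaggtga
Mcm3: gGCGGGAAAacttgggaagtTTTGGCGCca

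A match is a description of these letters and does not show that E2F was bound.

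Of the 6 helicase activation genes, none was called by limma, edgeR or DESeq2, and 2 were higher at an unadjusted p under 0.05. Gins4, a subunit of the GINS complex that completes the active helicase, had the smallest p. It read 953, 918, 963, 1048 and 996 in controls and 1323, 1310, 932, 1078 and 1295 in heterozygous libraries, of which 4 exceeded every control. Its log2 fold change was 0.27 (SE 0.118, adjusted p = 0.132). Cdc45, the other cofactor of the helicase and the gene with the most reads in this step, read 2709, 2806, 2140, 2482 and 2499 in controls and 3086, 3188, 1960, 2572 and 3069 in heterozygous libraries. Heterozygous library 3 was again below all controls, and the estimate was 0.12 (95% interval -0.19 to 0.42). Mcm10, which promotes helicase activation, averaged 1002 ± 102 and 1159 ± 253, Gins2 673 ± 35.4 and 769 ± 99.4, and Gins3 476 ± 56.8 and 579 ± 70.7. Gins1 was the only GINS gene with an estimate below 0, at 265 ± 42.8 and 228 ± 61.6 (log2 fold change -0.24, adjusted p = 0.409). Of the annotated Gins2 exons, 70.7% overlap those of the opposite-strand gene Gse1. Exons of 17 members overlap those of another gene, in 11 members over more than 10% of the exons. Among these 11, on opposite strands, are Orc2 with Nif3l1 (24.0%), Rfc2 with Lat2 (19.1%) and Rfc4 with Eif4a2 (13.4%). Nif3l1 averaged 529 normalized reads, Lat2 769 and Eif4a2 3027.

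Of the 8 polymerase and primase genes, Prim2 was called higher. Prim2 encodes the large subunit of primase, which starts each new strand with a short RNA. Prim2 (ENSMUSG00000026134.11, chromosome 1 from 33453810 to 33669795, minus strand) read 932, 926, 913, 1110 and 1053 in controls and 1419, 1577, 1161, 1410 and 1413 in heterozygous libraries. All heterozygous libraries exceeded all controls. The log2 fold change was 0.50 (SE 0.111, limma adjusted p = 0.0147), and of the 22 alternatives run it was lost only after quantile normalization (adjusted p = 0.0693). Prim1, the catalytic primase subunit, had means of 1489 ± 121 in controls and 1687 ± 362 in heterozygous libraries, a difference that was not called (adjusted p = 0.494).

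Pold2, the second subunit of the lagging-strand polymerase delta, read 1434, 1563, 1412, 1845 and 1506 in controls and 2439, 2184, 1613, 1696 and 2111 in heterozygous libraries. Libraries 1, 2 and 5 exceeded every control, and the difference missed the threshold (log2 fold change 0.36, SE 0.132, adjusted p = 0.0843). Pold1, the catalytic subunit and the gene with the most reads in this step, read 3290, 2402, 3129, 2936 and 2201 in controls and 3293, 2631, 3294, 3281 and 1773 in heterozygous libraries. Its groups overlapped, with an estimate of 0.01 (95% interval -0.38 to 0.40). Pole, the catalytic subunit of the leading-strand polymerase epsilon, averaged 450 ± 24.8 and 406 ± 79.5, and its partner Pole2 398 ± 46.1 and 483 ± 107. Pola1 and Pola2, subunits of the polymerase alpha that extends primers, averaged 829 ± 114 and 1171 ± 102 in controls and 896 ± 156 and 1232 ± 135 in heterozygous libraries. The Pold1 window held its match 40 to 47 bases after the start (chr7:44548766-44548787, minus strand).

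Pold1: cgtatcttgtgGCGGGAAAagc

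In the group of the clamp, its loader, RPA and lagging-strand enzymes, 2 of 11 genes were called higher. Pcna encodes the ring that tethers polymerases to DNA. Pcna (ENSMUSG00000027342.14, chromosome 2 from 132249162 to 132253314, minus strand) read 8502, 8816, 8586, 9690 and 9347 in controls and 12961, 13221, 10631, 12526 and 14330 in heterozygous libraries. The groups did not overlap, and the log2 fold change was 0.50 (SE 0.112, limma adjusted p = 0.0156). Of the 22 alternatives the call was lost only after quantile normalization (adjusted p = 0.135). A processed copy, Pcna-ps2, matches 781 bases of the Pcna transcript at 99.2% identity and averaged 77.1 normalized reads against 10861 for Pcna, so how such reads divide is uncertain.

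Rfc3, a subunit of the clamp loader, read 683, 821, 713, 891 and 847 in controls and 1209, 1171, 912, 968 and 1295 in heterozygous libraries. All heterozygous libraries exceeded all controls, library 3 by the least. The log2 fold change was 0.48 (SE 0.128, adjusted p = 0.0283). The call was lost without heterozygous libraries 1 and 2 together (adjusted p = 0.0537), and without any of control libraries 1, 2, 3 and 5 or heterozygous library 5 (adjusted p of just over 0.05 to 0.0761). With no filter (0.0508) and quantile normalization (0.128) it was lost too, and in 9 of the 22 alternatives in all. The other loader genes Rfc1, Rfc2, Rfc4 and Rfc5 had estimates of 0.11, 0.26, 0.19 and 0.30 and were not called. Rfc2 had the most reads per kb of the 5, at 1089 in controls and 1314 in heterozygous libraries. The Rfc3 window held matches at bases 10 to 3 before the start and at the first 8 bases after it, and the 160 bases before the start are shown (chr5:151651209-151651368, minus strand).

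Rfc3: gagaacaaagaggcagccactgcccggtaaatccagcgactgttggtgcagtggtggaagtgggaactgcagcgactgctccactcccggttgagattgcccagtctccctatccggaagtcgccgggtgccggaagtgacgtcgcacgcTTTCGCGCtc

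Rpa1, the large subunit of the complex that coats single-stranded DNA, read 5617, 5232, 5374, 6315 and 5583 in controls and 6603, 6892, 5869, 7426 and 7537 in heterozygous libraries. Heterozygous library 3 lay within the control range and the other 4 above it (log2 fold change 0.28, SE 0.107, adjusted p = 0.0915). Rpa1 was called by DESeq2 (adjusted p = 0.0479) and by limma without heterozygous library 3 (adjusted p = 0.0495). Its partners Rpa2 and Rpa3 averaged 1829 ± 173 and 717 ± 79.0 in controls and 2082 ± 450 and 686 ± 195 in heterozygous libraries. Fen1, a nuclease that trims Okazaki fragments, averaged 4789 ± 211 and 5362 ± 541, and Lig1, the ligase that joins them, 2309 ± 213 and 2377 ± 131. Neither was called, and 78.8% of the annotated Fen1 exons overlap the antisense gene Gm10143.

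**Figure D3:**
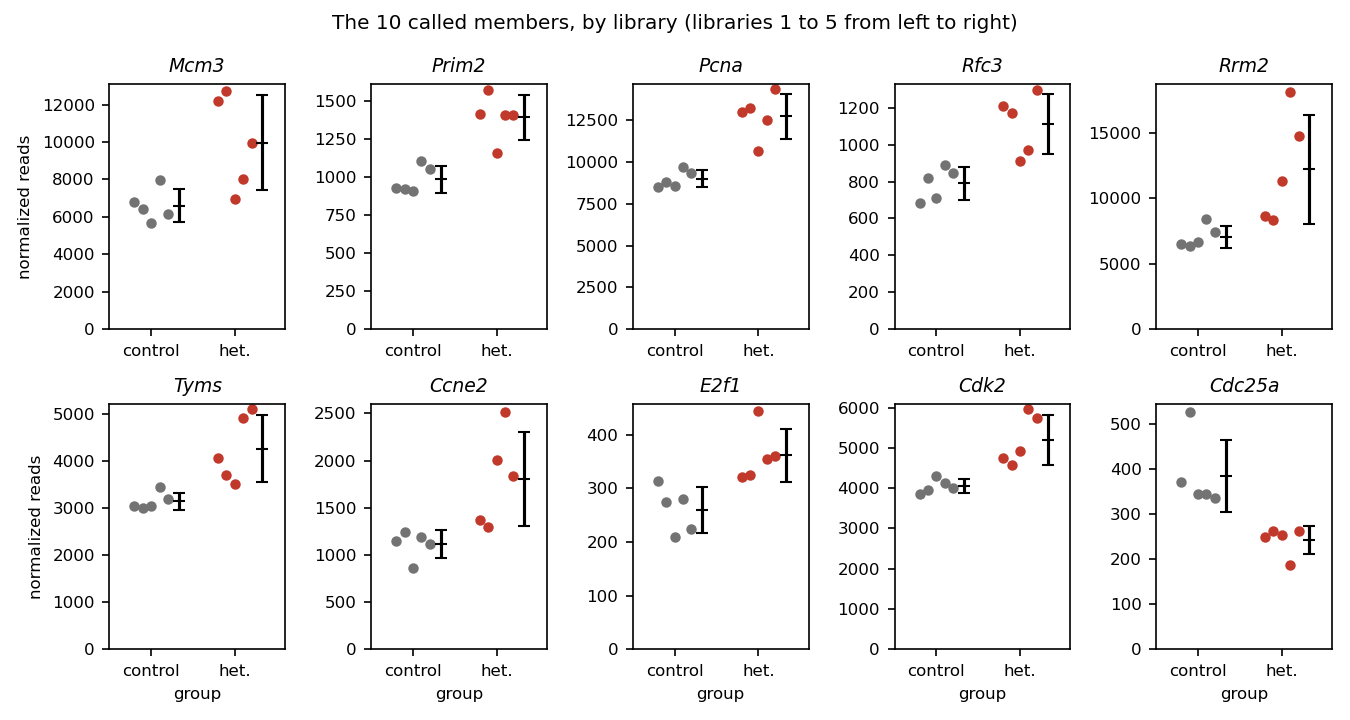
Normalized reads (vertical axes, from 0) of the 10 called genes, with a point per library in the order 1 to 5, grey for floxed control and red for heterozygous, and bars for the mean and SD of 5 libraries. Cdc25a is lower in all red points, and Mcm3 and Rrm2 are the called genes in which the red and grey points overlap.

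All 4 nucleotide supply genes had estimates above 0, and 2 were called. Rrm2 encodes the small, cell cycle-regulated subunit of ribonucleotide reductase, which makes deoxynucleotides. Rrm2 (ENSMUSG00000020649.11, chromosome 12 from 24708241 to 24714146, plus strand) read 6538, 6366, 6664, 8388 and 7406 in controls and 8653, 8330, 11317, 18088 and 14722 in heterozygous libraries. Libraries 3, 4 and 5, those with the high erythroid and neutrophil sums, were the highest, and library 2 fell within the control range. The log2 fold change was 0.73 (SE 0.198, limma adjusted p = 0.0309). Without libraries 3, 4 and 5 the estimate was 0.27 and not called (adjusted p = 0.155). The call was also lost without any of control libraries 1, 2, 3 and 5 or heterozygous libraries 4 and 5 (adjusted p of 0.0557 to 0.0761), and after quantile normalization (0.150), 8 of the 22 alternatives in all.

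Rrm1, the large subunit of the same enzyme, read 11852, 11494, 10252, 12824 and 10242 in controls and 12909, 14722, 9559, 14991 and 13192 in heterozygous libraries. Heterozygous library 3 was the lowest of all 10, and the gene was not called (log2 fold change 0.19, adjusted p = 0.352). The ratio of Rrm2 to Rrm1 reads was 1.18, 1.21 and 1.12 in libraries 3, 4 and 5, against 0.670 and 0.566 in the first pair and 0.552 to 0.723 across the controls. Libraries 3, 4 and 5 alone lay outside the control range.

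Tyms, thymidylate synthase, read 3054, 3010, 3059, 3450 and 3199 in controls and 4080, 3705, 3527, 4930 and 5109 in heterozygous libraries. All heterozygous libraries exceeded all controls, and the log2 fold change was 0.42 (SE 0.122, adjusted p = 0.0380). The call was lost without heterozygous libraries 3, 4 and 5 together (adjusted p = 0.0701), and without any of control libraries 1, 2, 3 and 5 or heterozygous libraries 4 and 5 (adjusted p of 0.0714 to 0.0887). Tyms was also not called with edgeR (0.0502), no filter (0.0673) or quantile normalization (0.312), and in 11 of the 22 alternatives in all. Tk1, thymidine kinase, had means of 3694 ± 670 and 4482 ± 676, a difference that was not called (adjusted p = 0.20).

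Of the 6 G1/S control genes, 3 rose and 1 fell. Cdc25a removes inhibitory phosphates from Cdk2. Cdc25a (ENSMUSG00000032477.14, chromosome 9 from 109875579 to 109893895, plus strand) read 370, 526, 345, 343 and 335 in controls and 248, 262, 252, 186 and 261 in heterozygous libraries. The heterozygous libraries all lay below the controls. The log2 fold change was -0.65 (SE 0.155, limma adjusted p = 0.0195), and Cdc25a was called lower in all 22 alternatives, with adjusted p of 0.00260 to 0.0468.

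Ccne2 encodes cyclin E2, an activator of Cdk2. It read 1144, 1247, 865, 1191 and 1113 in controls and 1371, 1300, 2003, 2515 and 1834 in heterozygous libraries, all above every control, with libraries 3, 4 and 5 the highest. The log2 fold change was 0.67 (SE 0.175, adjusted p = 0.0279). The call was lost without libraries 3, 4 and 5 together (adjusted p = 0.192), and without any of control libraries 1, 3 and 5 or heterozygous libraries 3, 4 and 5 (adjusted p of 0.0511 to 0.0614), and after quantile normalization (0.0784), 9 of the 22 alternatives in all. Ccne1, which encodes cyclin E1, had means of 631 ± 72.6 and 766 ± 191, also uncalled (adjusted p = 0.305). Of the annotated Ccne2 exons, 10.5% overlap the opposite-strand gene Ints8.

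Cdk2, the kinase bound by cyclin E, read 3862, 3947, 4311, 4122 and 3995 in controls and 4761, 4586, 4926, 5979 and 5755 in heterozygous libraries. The groups did not overlap, and the log2 fold change was 0.35 (SE 0.106, adjusted p = 0.0437). E2f1, an activating transcription factor of S-phase genes, read 313, 274, 209, 281 and 224 in controls and 322, 325, 445, 354 and 361 in heterozygous libraries. Its groups also did not overlap, by a narrow margin for heterozygous libraries 1 and 2 (log2 fold change 0.48, SE 0.146, adjusted p = 0.0470). Leaving out any control library ended the calls of Cdk2 and E2f1, as did leaving out heterozygous library 4 or 5 (adjusted p of 0.0607 to 0.104 for Cdk2), and for E2f1 also library 2 or 3 (adjusted p of 0.0530 to 0.111 over the 9 libraries). Without libraries 3, 4 and 5 together their adjusted p was 0.186 for Cdk2 and 0.208 for E2f1. The adjusted p of Cdk2 and E2f1 was 0.0591 and 0.0656 with edgeR, 0.0884 and 0.0822 with no filter, 0.0520 and 0.0567 with a pseudocount of 0.1, and 0.540 and 0.0898 after quantile normalization. Of the 22 alternatives Cdk2 lost its call in 13 and E2f1 in 15.

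E2f2, a second activating E2F gene, was not called (log2 fold change 0.38, SE 0.331, adjusted p = 0.445) and had the widest interval of the 49, from -0.33 to 1.10; it is described in full because of its values. It read 391, 432, 559, 471 and 519 in controls and 343, 287, 1143, 839 and 921 in heterozygous libraries. Heterozygous libraries 1 and 2 lay below every control and libraries 3, 4 and 5 above every control. With libraries 1 and 2 left out E2f2 was called higher (log2 fold change 1.03, adjusted p = 0.000415), and with libraries 3, 4 and 5 left out it was called lower (log2 fold change -0.58, adjusted p = 0.0226). E2f2 was picked because its values follow this division of the libraries, so these adjusted p-values are descriptions and do not test it. Promoter matches are shown for Cdc25a, the gene that fell (chr9:109875419-109875578, plus strand), and for Cdk2 (chr10:128705052-128705211, minus strand), each with the 160 bases before the start.

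Cdc25a: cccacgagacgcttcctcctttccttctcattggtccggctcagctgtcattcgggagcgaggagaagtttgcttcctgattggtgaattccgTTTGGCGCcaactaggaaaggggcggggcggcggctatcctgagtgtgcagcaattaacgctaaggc
Cdk2: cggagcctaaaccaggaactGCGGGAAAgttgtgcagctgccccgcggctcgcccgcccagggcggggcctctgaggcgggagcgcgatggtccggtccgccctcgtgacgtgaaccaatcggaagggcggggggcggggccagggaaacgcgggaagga

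Cdc25a, called lower, and Cdk2, called higher, each held 1 match, at bases 67 to 60 and 140 to 133 before the start.

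Neither gene of chromatin assembly factor 1, which deposits histones behind the fork, was called by limma, edgeR or DESeq2, nor did either reach an unadjusted p under 0.05. Chaf1a, its large subunit, read 1893, 1259, 1618, 1242 and 1247 in controls and 1161, 1181, 1802, 1976 and 1021 in heterozygous libraries. Heterozygous libraries 1, 2 and 5 lay below every control and library 4 above every control (log2 fold change -0.05, 95% interval -0.47 to 0.37), and 33.6% of its annotated exons overlap the opposite-strand gene Ubxn6. Chaf1b, the middle subunit, read 836, 861, 845, 1026 and 895 in controls and 994, 962, 1010, 968 and 1038 in heterozygous libraries. Of the 5 heterozygous libraries 1 exceeded every control, and the estimate was 0.16 (95% interval -0.05 to 0.37).

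Per kb of merged exon, transcript levels in the controls spanned a wide range. Pcna stood highest at 5921 normalized reads per kb, followed by Mcm6 at 4119, Mcm7 at 3476, Mcm5 at 3443 and Rrm2 at 3225. Mcm7 and Mcm5, neighbours in this order, did not differ beyond their spread. The lowest were Orc1 at 39.1, Pole at 60.6, Cdc25a at 81.5 and E2f1 at 82.5. In heterozygous libraries Pcna stood first in all 5, at 7004 to 9440 per kb. Mcm6 came next in libraries 1 and 2, at 6674 and 6014, where Rrm2 ranked 6, at 3946 and 3799. Rrm2 came next in libraries 3, 4 and 5, at 5161, 8248 and 6713. By their means over the 5 libraries Orc1, Cdc25a and Pole were the 3 lowest, at 33.8, 51.4 and 54.7. These levels assume even coverage along each transcript, which was not tested in these amplified libraries.

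The members also varied among the heterozygous libraries. Relative to the control mean, the median of the 49 genes was 0.24 and 0.30 on the log2 scale in libraries 1 and 2, and -0.02, 0.15 and 0.22 in libraries 3, 4 and 5, against -0.07 to 0.12 in the controls. The steps differed in which libraries were high. The median of the licensing genes was 0.23 and 0.25 in libraries 1 and 2 and -0.21, -0.00 and 0.15 in libraries 3, 4 and 5, and that of the clamp, loader and lagging-strand group was 0.42 and 0.41, then -0.06, 0.19 and 0.25. The G1/S control genes ran the other way, at 0.03 and 0.06 in libraries 1 and 2 and 0.58, 0.51 and 0.61 in libraries 3, 4 and 5. These medians are descriptions, and no test compared the libraries within the group.

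With libraries 3, 4 and 5 left out, 15 members were called higher and 3 lower, beside 7.44% and 8.22% of all genes tested. Mcm3, Mcm6, Mcm10, Gins3, Gins4, Prim1, Prim2, Pold2, Pole2, Pcna, Rfc2, Rfc3, Rfc4, Rfc5 and Rpa2 were higher, and Pole, E2f2 and Cdc25a lower. With libraries 1 and 2 left out, 9 were called higher and 2 lower, beside 9.33% and 12.1% of all genes. These were Prim2, Pcna, Rrm2, Tyms, Ccne1, Ccne2, E2f1, E2f2 and Cdk2 on the higher side and Gins1 and Cdc25a on the lower. The fits share the 5 controls, so they are not independent. The division into libraries 1 and 2 and libraries 3, 4 and 5 rests on the values of these same libraries. The shares of all genes were not matched for level, on which the background depends. Prim2, Pcna and Cdc25a were called in the same direction in both fits.

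**Figure D4:**
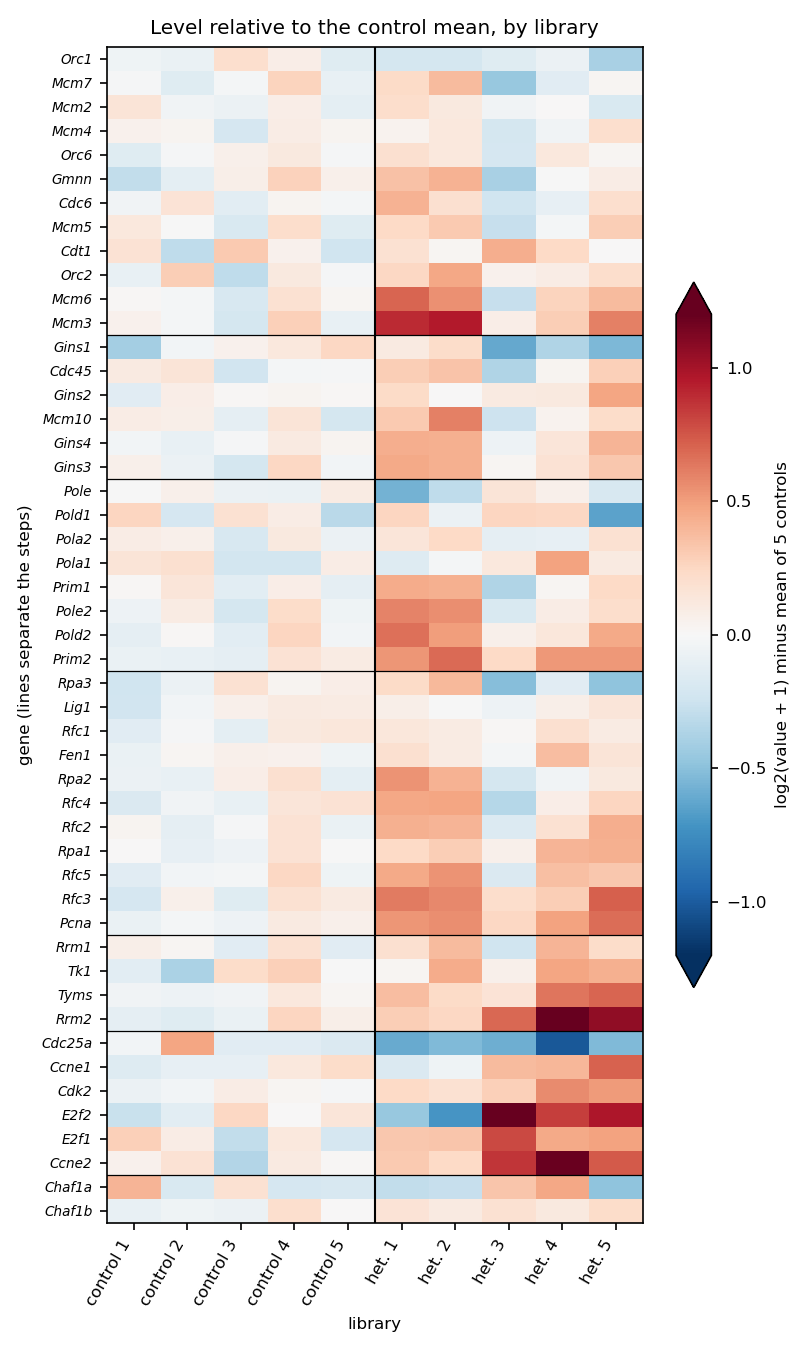
Log2(value + 1) of each gene in each library minus the mean of the 5 controls (colour, red for higher, blue for lower), with genes in rows, in the order of steps used above, and libraries in columns. Mcm3 and Mcm6 are reddest in heterozygous libraries 1 and 2, whereas Rrm2, Ccne2 and E2f2 are reddest in libraries 3, 4 and 5, and Cdc25a is blue in all 5.

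Another 81 genes of the same pathway were read from the same fit, and 9 were called higher and 3 lower, with a median log2 fold change of 0.08. Of all genes tested, 5% were called higher and 8.01% lower. The shares were 7.52% and 4.25% for genes between 100 and 1000 normalized reads, and 15.5% and 2.19% for genes averaging at least 1000. Whether these 81 genes or the lists below differ from those shares was not tested. Of 13 other licensing and firing factors, none was higher and 1 was lower, Ticrr, which brings the firing factors to the loaded helicase (541 ± 38.5 to 385 ± 54.0, SD, n = 5 each, limma adjusted p = 0.0233). Of 19 other fork and lagging-strand factors, 3 were higher and none lower, among them the topoisomerase gene Top1 (1201 ± 154 to 1649 ± 173, adjusted p = 0.0265). Of 14 other nucleotide enzymes, 4 were higher and none lower, led by Cmpk1, a nucleoside monophosphate kinase (2014 ± 313 to 3298 ± 460, adjusted p = 0.00711), and Nme2, a nucleoside diphosphate kinase (1081 ± 218 to 2068 ± 736, adjusted p = 0.0230). Samhd1, which degrades deoxynucleotides, was among them and is named after its values were seen (420 ± 49.4 to 933 ± 563, adjusted p = 0.0491). It read 465 and 536 in heterozygous libraries 1 and 2, 1115, 717 and 1833 in libraries 3, 4 and 5 with the high neutrophil sums, and at most 479 in controls. None of 10 other chromatin assembly factors was called by limma, edgeR or DESeq2, and 2 were higher at an unadjusted p under 0.05.

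Of the 25 genes of the cyclin D, CDK4/6, RB, E2F and CDK inhibitor list, 2 were higher and 2 lower. Ccnd2, which encodes cyclin D2, a growth factor-responsive partner of CDK4 and CDK6, fell from 323 ± 103 to 142 ± 59.9 (SD, n = 5 each, log2 fold change -1.21, adjusted p = 0.0122). Tfdp1, the dimerization partner of E2F proteins, fell from 10252 ± 1486 to 6782 ± 1250 (adjusted p = 0.0218). Higher were E2f8, a repressive E2F gene (1273 ± 51.1 to 1772 ± 284, adjusted p = 0.0254), and Cdkn2d, an inhibitor of CDK4 and CDK6 (2325 ± 224 to 3751 ± 1263, adjusted p = 0.0464). Cdkn2d, named after its values were seen, read 2440 and 2739 in heterozygous libraries 1 and 2, 3852, 4103 and 5621 in libraries 3, 4 and 5, and at most 2597 in controls.

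None of 26 mitosis genes was called by limma or edgeR, and DESeq2 called 1 higher. At an unadjusted limma p under 0.05, 2 were higher and 1 lower, and the list's median log2 fold change was 0.06. Mki67, the proliferation marker Ki-67, named here as the usual marker and not by its p, had means of 3774 ± 480 and 3281 ± 580 (controls first, SD, n = 5 each, log2 fold change -0.21, adjusted p = 0.293). Whether the replication genes differ from the mitosis genes in their response was not tested.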

How the data were processed

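Messenger RNA was copied and amplified by Geo-seq and made into TruePrep libraries, per the labels' protocols. The submitters' processing notes name Bowtie 0.12.9, Cufflinks 2.1.1, HTSeq, DESeq2 and mm10, with no role or order. The deposited signal is a read count that the authors divided by 1 factor per library: values above 0 were whole multiples of 1 step within 0.01 for all genes in 8 libraries and all but 1 gene in each of the other 2. The main test was limma 3.58.1 (R 4.3.3, intensity trend) on log2(value + 1), with group as the only term, keeping genes that reached 1 in 5 or more of the 10 libraries. Fold changes on this scale understate changes of low genes. Whether each library is a separate mouse is not stated by the labels, so p-values cover only the spread between these libraries, which may be technical. Alternatives on recovered reads were edgeR 4.0.16, DESeq2 1.42.0, and limma after TMM or upper quartile scaling. Those on the deposited values were quantile normalization, other filters, a pseudocount of 0.1, quality weights, a replicate block and left-out libraries. Members given by library were the 12 with the smallest p and, per step, the gene with the most reads and that with the smallest p. E2f2 and the MCM shares were added after their values were seen. The members and lists were chosen with earlier results of these data known. Positions and exon lengths are from GENCODE vM21, of the same build, and promoters from RefSeq (GRCm38.p6). Near-identical copies, of at least 200 bases at 95% identity or more, were sought with BLAST 2.17.0. They were found for 14 members, and some are genes whose exons overlap the member. Tyms matched Reep3, among other genes, over 355 bases at 97.7% identity, and Reep3 averaged 1794 normalized reads. Mcm7 matched Gm5487 over 2157 bases at 97.7% identity, and Gm5487 averaged 20.3. How reads divide between members and such copies was not tested. No library was counted as a repeat of another: the chi-square per degree of freedom was at least 15.5 for every pair in a group.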

Additional observations from a re-analysis of the deposited data

Results flagged for a closer look

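In 4 of 98 sets of 5 libraries (49 genes in 2 groups), 1 library stood far from the other 4, and chance alone gives about 1 in 20. Mcm4 read 4043 in control library 3 and 4740 to 4932 in the other controls. Rfc5 read 3486 in control library 4 and 2671 to 2886 in the others. Cdc25a read 526 in control library 2 and 335 to 370 in the others, and 186 in heterozygous library 4 against 248 to 262 in the others. Without control library 2, Cdc25a was still called lower.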

How the results depend on the processing

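The count of replication and G1/S genes called higher, 9, became 5 with edgeR, 0 after quantile normalization, 4 with no filter, 3 with a replicate block and 15 without heterozygous libraries 3, 4 and 5. It ranged from 2 to 13 when 1 library was left out, and was 2 without control library 1, 3 or 5 or heterozygous library 5, 3 without control library 2 and 4 without heterozygous library 4. The count called lower, 1, became 2 without heterozygous libraries 1 and 2 and 3 without libraries 3, 4 and 5, and stayed 1 when a single library was left out. The share of all genes called was not computed with no filter, with a replicate block or with a single library left out. Whether the changed counts in those fits are particular to the members therefore cannot be told. E2f2, picked for its values, turned to a called log2 fold change of -0.58 without libraries 3, 4 and 5. The cause was not tested. Same-numbered libraries of the groups did not deviate together (correlations of -0.0905 to 0.0817 over 22458 genes). With 5 pairs and heterozygous libraries that differ among themselves, this cannot exclude pairing by replicate number. In 23 members that were not called, the sign of the estimate changed under some alternative. Members averaged 110 to 20533 normalized reads, so depth left none of them untested.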
